A study of Homo sapiens with 3 samples.

Results

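The genes described here encode 10 chaperones, folding enzymes and stress-induced partners of the endoplasmic reticulum (ER), named by symbol as HSPA5, HYOU1, SDF2L1, DNAJB9, DNAJB11, HSP90B1, PDIA4, CALR, CRELD2 and MANF. All 10 symbols were found once each among the 58735 genes of the deposited table. They were picked with their differences from the control library already known, so those differences are given as a description with no test. The cells are HGC-27, an established line from a human gastric cancer, and RNA-seq was made from 2 libraries labelled shUSP16 (shUSP16-1 and shUSP16-2) after a short hairpin RNA against the histone H2A deubiquitinase USP16, and from 1 library labelled shControl, whose genotype is given as WT and whose hairpin is scrambled. Whether shUSP16-1 and shUSP16-2 are distinct hairpins, separate cultures or repeats is not in the labels, so the p-values below rest on the scatter of these libraries alone, which may be technical. All 3 libraries share medium with 10% fetal bovine serum, and the labels' protocols list for all of them dexamethasone at 1 μM and isobutylmethylxanthine at 0.5 mM, then insulin at 10 μg/ml; whether these cells were in fact treated so is unclear.

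Proteins entering the secretory pathway fold in the ER lumen, where HSPA5 holds unfolded chains and HSP90B1, calreticulin and disulfide isomerases act on later intermediates. When unfolded chains accumulate, the sensors ERN1 (IRE1), EIF2AK3 (PERK) and ATF6 start the unfolded protein response, in which spliced XBP1 and cleaved ATF6 raise transcription of chaperone genes. ATF6 is known to act together with the trimer NF-Y at the ER stress response element (ERSE), and ATF6 and XBP1 also bind a shorter element, ERSE-II. Gastric epithelium secretes heavily and depends on this folding capacity.

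The promoters of 6 of the 10 genes hold an exact ERSE or ERSE-II match. ERSE was first described from promoters that include those of HSPA5, HSP90B1 and CALR, so matches there are known background. All 10 were grouped as ER chaperones of the unfolded protein response, whose factors act at such elements. More matches than over all windows can thus follow from the choice of genes, and nothing is read from the shares below. RefSeq promoters (build GRCh38.p14, 250 bases before to 50 after an annotated start) were found for all 10 symbols, as 11 windows because PDIA4 has a second start. ERSE was searched as CCAAT and CCACG with 9 bases of any kind between them, and ERSE-II as ATTGG and CCACG with 1 base between them, on both strands; the elements share these letters, but none of the 6 promoters held both. The bases around the matches are printed 5′ to 3′ on the gene's strand to show the elements in their surroundings; capitals mark an ERSE or ERSE-II match or the motif TGACGTG, the core of the element called UPRE.
HSPA5 (chr9:125241371-125241429, minus strand): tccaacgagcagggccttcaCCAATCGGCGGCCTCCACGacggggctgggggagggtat
HSP90B1 (chr12:103930196-103930359, plus strand): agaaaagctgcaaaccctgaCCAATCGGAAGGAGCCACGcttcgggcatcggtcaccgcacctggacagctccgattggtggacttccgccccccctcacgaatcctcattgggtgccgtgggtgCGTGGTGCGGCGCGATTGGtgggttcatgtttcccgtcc
CALR (chr19:12938364-12938422, plus strand): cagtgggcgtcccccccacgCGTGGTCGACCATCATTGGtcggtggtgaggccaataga
CRELD2 (chr22:49918534-49918592, plus strand): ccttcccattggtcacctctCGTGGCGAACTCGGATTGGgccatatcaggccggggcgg
HYOU1 (chr11:119057254-119057410, minus strand): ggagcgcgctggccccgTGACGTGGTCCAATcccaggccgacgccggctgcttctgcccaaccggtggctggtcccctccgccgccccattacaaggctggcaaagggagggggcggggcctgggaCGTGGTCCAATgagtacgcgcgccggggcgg
SDF2L1 (chr22:21642094-21642144, plus strand): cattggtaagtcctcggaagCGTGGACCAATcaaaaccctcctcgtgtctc
ERSE occurred in HSPA5, CALR and CRELD2 once and in HSP90B1 at 2 places, 4 of the 10 genes, against 0.0773% of all 34943 promoter windows and 0.136% of the 13254 windows of genes tested below. ERSE-II occurred at 2 places in HYOU1 and once in SDF2L1, against 0.0544% of all windows and 0.0981% of those of tested genes. In HYOU1 the distal ERSE-II match overlaps the TGACGTG motif, which 1.97% of all windows hold and which no window of the other 9 genes holds. CCAAT alone was present in the first window of all 10 genes, against 34.6% of all windows. A match is only a match of letters, and the windows of PDIA4, DNAJB9, DNAJB11 and MANF do not hold these exact strings.

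The level of the targeted gene and of cell type markers was read first. USP16 had 4.29 FPKM (fragments per kilobase of gene length, scaled to the library total) in shUSP16-1 and 5.98 FPKM in shUSP16-2, against 6.28 FPKM in shControl, so the library labelled shUSP16-2 was close to the control for its own target. Whole reads recovered from the FPKM values summed to 29530581 in shUSP16-1, 31187845 in shUSP16-2 and 30131136 in shControl. Although the label says gastric cancer cells, 9 epithelial markers summed to only 1.24 FPKM in shUSP16-1 and 0.885 FPKM in shUSP16-2, against 1.80 FPKM in shControl, with KRT19, TFF1 and MUC5AC listed at 0 in all 3 libraries. The mesenchymal and fibroblast list was at 443 FPKM in shUSP16-1 and 570 FPKM in shUSP16-2, against 447 FPKM in shControl, led by COL3A1 and VIM. Other genes of that list were low in every library, with at most 1.05 FPKM for FN1, 0.809 FPKM for PDGFRB and 0.0621 FPKM for CDH2. The immune and endothelial list reached at most 0.537 FPKM in any library, with PTPRC, CD3E, MS4A1, PECAM1 and CDH5 listed at 0.

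The 10 genes span a wide range of levels and kept one order in all 3 libraries. From highest to lowest they ran CALR, HSPA5, PDIA4, HSP90B1, SDF2L1, HYOU1, MANF, DNAJB11, CRELD2 and DNAJB9. Taken over all 3 libraries, the ranges of these neighbours overlapped for HSPA5 and PDIA4, PDIA4 and HSP90B1, HYOU1 and MANF, MANF and DNAJB11, and CRELD2 and DNAJB9, and did not overlap for the other 4 pairs. In shControl, CALR stood at the 99.4 percentile of the 13852 genes that averaged 1 FPKM or more and DNAJB9 at the 57.1 percentile. The summed FPKM of the 10 came to 798 FPKM in shUSP16-1 and 993 FPKM in shUSP16-2, against 711 FPKM in shControl, most of it from the first 4 of that order. As a share of all FPKM this was 0.245% in shUSP16-1 and 0.302% in shUSP16-2, against 0.228% in shControl. The mitochondrial genome took 34.2% and 33.2% of all FPKM in shUSP16-1 and shUSP16-2, against 36.7% in shControl; its part in these shares was not tested, but without mitochondrial genes the chaperone shares were 0.373% and 0.451%, against 0.359%, in the same order. In bulk RNA, more cells expressing a gene and more RNA per cell cannot be told apart.

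**Figure D1:**
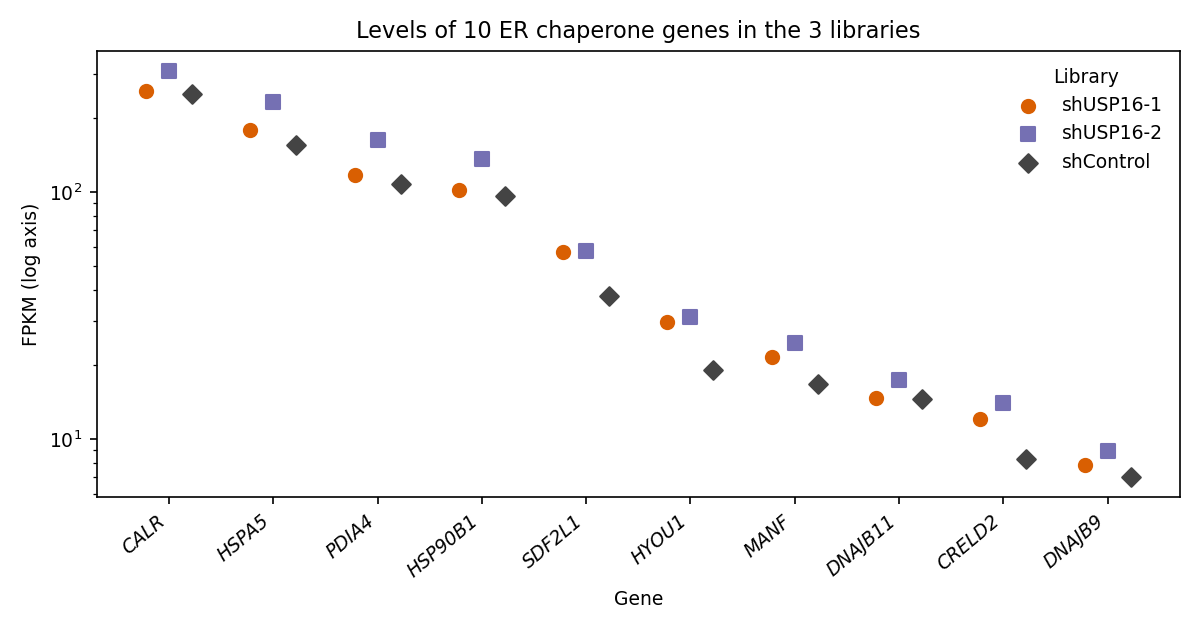
FPKM of the 10 ER chaperone genes (log axis) in shUSP16-1, shUSP16-2 and shControl, with 1 point per library and genes ordered by their level in shControl. Every shUSP16 point lies above its shControl point with the authors' scaling, but DNAJB11, CALR and HSP90B1 in shUSP16-1 do so by ratios of only 1.01 to 1.06, and with sums of reads these 3 lie just below it.

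With the authors' scaling all 10 genes were higher than shControl in both shUSP16 libraries, where 44.9% of all tested genes were (32.4% were lower in both), and 4 of them were at least 25% higher in both, where 9.46% of all tested genes were. The choice of the genes used this contrast, so nothing is read from these or the other counts of the 10 against shControl. Those 4 were HYOU1, SDF2L1, CRELD2 and MANF. In shUSP16-1 alone 4 of the 10 were at least 25% higher, where 15.4% of all tested genes were, and in shUSP16-2 alone 8 were, where 19.3% of all tested genes were. On the scale of log2(FPKM + 1), which understates the change of low genes, the median difference over the 10 was 0.17 in shUSP16-1 and 0.55 in shUSP16-2, against 0.04 in each library over all genes tested. Among the 7639 genes that averaged 5 FPKM or more, the range in which all 10 lie, the median was 0.10 in shUSP16-1 and 0.12 in shUSP16-2. Of those 7639 genes, 4449 were higher in both libraries and 1665 lower in both. That share higher in both is above the 44.9% over all tested genes. The list counts below are set beside all tested genes, though many listed genes lie in this range.

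Scaling decided the sign of the smallest values. The authors' FPKM imply library totals that differ from the sums of reads, which lowers shControl relative to the other libraries. Scaled to sums of reads, 7 of the 10 were higher in both libraries, where 31.3% of all tested genes were, and CALR, DNAJB11 and HSP90B1 were below shControl in shUSP16-1. The median of all genes was then -0.04 in shUSP16-1 and -0.06 in shUSP16-2, a shift of about 0.1 that applies to every difference given with the authors' scaling. Averaged over both shUSP16 libraries, all 10 stayed above shControl with either scaling.

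HSPA5, also called BiP, is the ER member of the HSP70 family and keeps the sensors inactive while it is bound to them. HSPA5 (ENSG00000044574, chromosome 9, 125234853 to 125241330, minus strand, GRCh38) had 178 FPKM in shUSP16-1 and 232 FPKM in shUSP16-2, against 154 FPKM in shControl. The shUSP16-1 value lay much nearer to shControl than to shUSP16-2, and the shUSP16 mean was 205 ± 38.1 FPKM (SD, n = 2). From 20800, 28108 and 19652 reads, shUSP16-1 was at 1.15 times shControl, with an exact binomial 95% interval of 1.13 to 1.18. For shUSP16-2 the ratio was 1.50 (1.47 to 1.53); intervals here and below cover counting error only, with the authors' totals.

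HYOU1 is a large HSP70-like protein that exchanges the nucleotide bound to HSPA5. It (ENSG00000149428, chromosome 11, 119044189 to 119057202, minus strand) had 29.6 FPKM in shUSP16-1 and 31.2 FPKM in shUSP16-2, against 19.0 FPKM in shControl. Both shUSP16 libraries were high and close together, at 30.4 ± 1.09 FPKM (SD, n = 2), with ratios to shControl of 1.56 (1.50 to 1.62) and 1.64 (1.58 to 1.70). Its promoter holds the pair of ERSE-II matches printed above. Relative to HSPA5 in the same library, which no scaling can change, HYOU1 was at 0.166 in shUSP16-1 and 0.134 in shUSP16-2, against 0.123 in shControl.

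SDF2L1 works with the J-domain protein DNAJB11 and keeps misfolded chains soluble for HSPA5. SDF2L1 (ENSG00000128228, chromosome 22, 21642261 to 21644298, plus strand) had 57.1 FPKM in shUSP16-1 and 57.6 FPKM in shUSP16-2, against 38.0 FPKM in shControl. It was the gene on which the shUSP16 libraries differed least, at 57.3 ± 0.353 FPKM (SD, n = 2), with ratios to shControl of 1.50 (1.40 to 1.61) and 1.51 (1.41 to 1.62). Its partner DNAJB11 (ENSG00000090520, chromosome 3, 186567403 to 186585800, plus strand) had 14.7 FPKM in shUSP16-1 and 17.3 FPKM in shUSP16-2, against 14.5 FPKM in shControl. For DNAJB11 shUSP16-1 and shControl could not be told apart, with a ratio of 1.01 whose interval of 0.957 to 1.07 holds 1, and only shUSP16-2 was high, at 1.19 (1.13 to 1.26).

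DNAJB9 is the J-domain protein that brings HSPA5 to ERN1 and so restrains that sensor. DNAJB9 (ENSG00000128590, chromosome 7, 108569568 to 108574850, plus strand) had 7.84 FPKM in shUSP16-1 and 8.91 FPKM in shUSP16-2, against 7.02 FPKM in shControl. Its reads were the fewest of the 10, at 665 and 784 against 648. The ratio to shControl was 1.12 in shUSP16-1, with an interval that begins at 1.00, and 1.27 in shUSP16-2. With sums of reads the DNAJB9 ratios were 1.05 (0.938 to 1.17) in shUSP16-1, an interval that holds 1, and 1.17 (1.05 to 1.30) in shUSP16-2. The antisense gene THAP5 overlaps it with 1197 and 1354 reads, against 1205, and PNPLA8 does so too. The strand setting of the counting is not given, so reads of these genes cannot be told apart. For the same reason DNAJB11, CRELD2 and HSP90B1 are uncertain to the extent of TBCCD1, ALG12 and C12orf73, which overlap them on the other strand.

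HSP90B1 (GRP94) is the ER member of the HSP90 family and folds integrins and Toll-like receptors. HSP90B1 (ENSG00000166598, chromosome 12, 103930107 to 103953645, plus strand) had 102 FPKM in shUSP16-1 and 136 FPKM in shUSP16-2, against 96.4 FPKM in shControl. Only shUSP16-2 stood clearly apart, with a ratio of 1.41 (1.38 to 1.44), while shUSP16-1 was at 1.06 (1.04 to 1.09) and, with sums of reads, at 0.993 (0.971 to 1.02). The pseudogene HSP90B2P had 12 and 34 reads, against 50 reads in shControl, next to 14340, 19798 and 14731 for HSP90B1 itself.

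PDIA4 is a disulfide isomerase that forms and rearranges disulfide bonds. It (ENSG00000155660, chromosome 7, 149003062 to 149028641, minus strand) had 117 FPKM in shUSP16-1 and 162 FPKM in shUSP16-2, against 108 FPKM in shControl. Its pattern was that of HSPA5 and HSP90B1, with shUSP16-2 high at a ratio of 1.51 (1.47 to 1.55) and shUSP16-1 at 1.09 (1.06 to 1.12). With sums of reads the shUSP16-1 ratio was 1.02, and its interval of 0.994 to 1.05 holds 1.

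CALR encodes calreticulin, a calcium-binding lectin chaperone of glycoproteins and the most abundant of the 10. CALR (ENSG00000179218, chromosome 19, 12938578 to 12944489, plus strand) had 258 FPKM in shUSP16-1 and 309 FPKM in shUSP16-2, against 249 FPKM in shControl. The shUSP16-1 ratio of 1.03 (1.01 to 1.05) became 0.968 (0.950 to 0.986) with sums of reads, so its direction in that library depended on the scaling. In shUSP16-2 the ratio was 1.24 (1.22 to 1.26), or 1.14 (1.12 to 1.16) with sums of reads. CALR made up 32.3% and 31.2% of the summed FPKM of the 10 in shUSP16-1 and shUSP16-2, against 35.1% in shControl.

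MANF and CRELD2 are small ER proteins that are strongly induced by ER stress; MANF can also be secreted and binds HSPA5, and CRELD2 is a cysteine-rich protein with EGF-like domains. MANF (ENSG00000145050, chromosome 3, 51385047 to 51389397, plus strand) had 21.5 FPKM in shUSP16-1 and 24.4 FPKM in shUSP16-2, against 16.7 FPKM in shControl. CRELD2 (ENSG00000184164, chromosome 22, 49918167 to 49927540, plus strand) had 12.0 FPKM in shUSP16-1 and 14.0 FPKM in shUSP16-2, against 8.30 FPKM in shControl. Both shUSP16 libraries were above shControl for either gene. The ratios of MANF were 1.28 (1.19 to 1.38) and 1.46 (1.36 to 1.57), and those of CRELD2 were 1.45 (1.35 to 1.55) and 1.68 (1.57 to 1.80), the highest of the 10 in shUSP16-2.

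**Figure D2:**
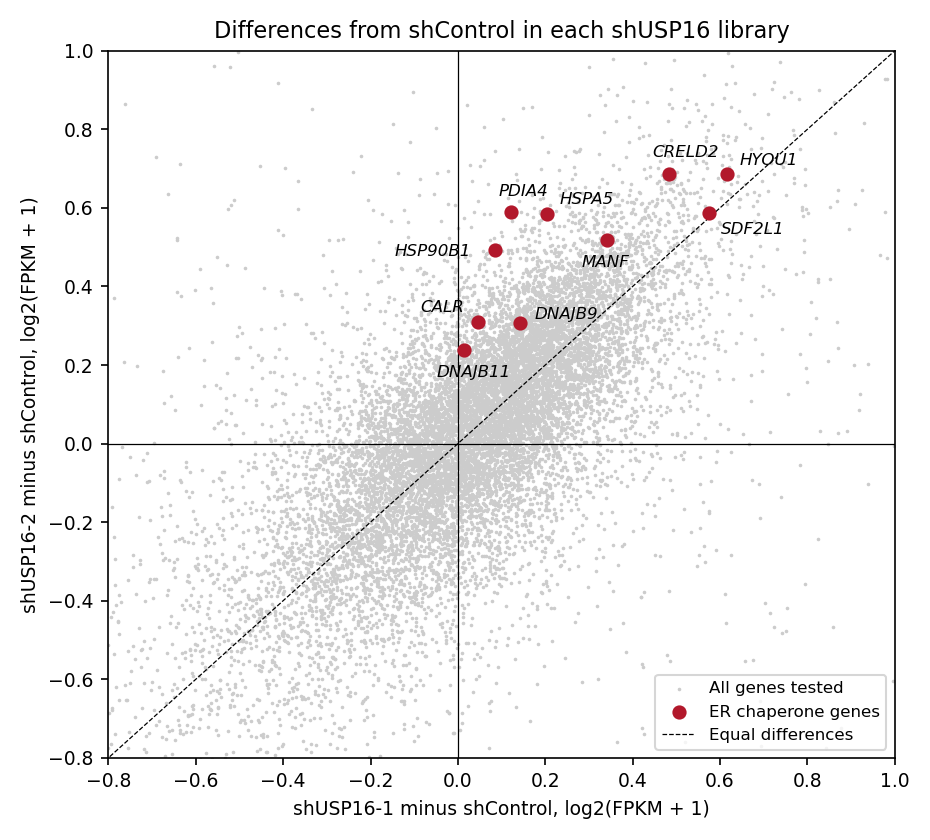
Difference from shControl in log2(FPKM + 1) in shUSP16-1 (x axis) and shUSP16-2 (y axis) for all 13852 genes tested (grey) and the 10 ER chaperone genes (red), in a window that leaves out genes with larger differences; both axes share shControl, so the slope of the cloud is no result. HYOU1 and SDF2L1 lie near the dashed line of equal differences, while PDIA4, HSPA5 and HSP90B1 lie well above it, at 0.12, 0.20 and 0.08 in shUSP16-1 and 0.59, 0.58 and 0.49 in shUSP16-2.

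The 2 shUSP16 libraries were also set beside each other, as a description only, since the levels in both were known when the genes were chosen. All 10 genes were higher in shUSP16-2 than in shUSP16-1, where 52.1% of all tested genes were, and 6 were at least 15% higher, where 19.4% of all tested genes were; nothing is read from these counts. The ratio of shUSP16-2 to shUSP16-1 was 1.39 for PDIA4 (1.35 to 1.42), 1.33 for HSP90B1 (1.30 to 1.36) and 1.30 for HSPA5 (1.28 to 1.33). CALR followed at 1.20 (1.18 to 1.22), DNAJB11 at 1.18 (1.12 to 1.24) and CRELD2 at 1.16 (1.09 to 1.24). MANF and DNAJB9 were both at 1.14. HYOU1 was at 1.05 (1.02 to 1.09) and SDF2L1 at 1.01, with an interval of 0.946 to 1.08 that holds 1. With sums of reads SDF2L1 was at 0.991, on the other side of 1, and the other 9 stayed above it. This is 1 library against 1, so it says nothing of a condition. In shUSP16-2, further from shControl in most of these genes, USP16 mRNA was nearer to its control level, and any link was not tested. The fibroblast genes COL3A1 (173 FPKM in shUSP16-1 and 248 FPKM in shUSP16-2, against 192 FPKM in shControl) and LUM (22.9 and 38.3 FPKM, against 32.2 FPKM) were also higher in shUSP16-2 than in shUSP16-1. VIM, COL1A1 and COL1A2 had mean log2 differences from shControl of 0.12, 0.51 and 0.67. Over the whole mesenchymal and fibroblast list all 6 tested genes were higher in shUSP16-2 than in shUSP16-1, and their part in the chaperone difference was not tested.

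**Figure D3:**
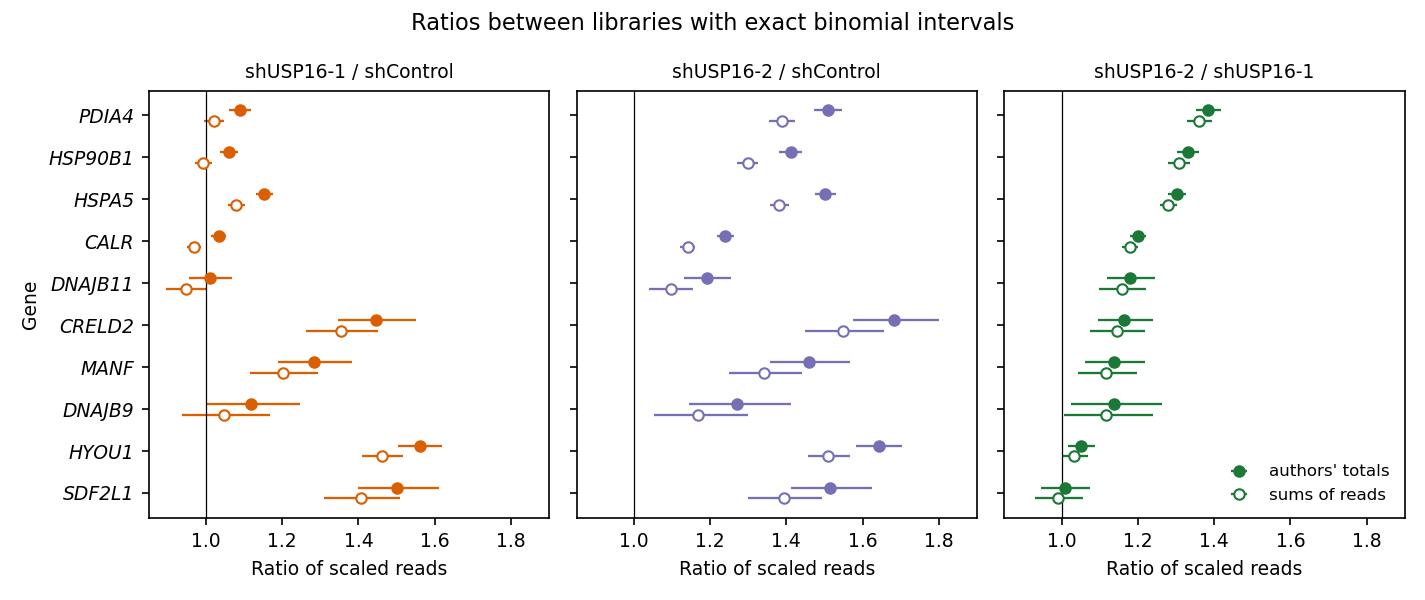
Ratios of scaled reads for the 10 genes between shUSP16-1 and shControl, shUSP16-2 and shControl, and shUSP16-2 and shUSP16-1, with exact binomial 95% intervals that cover counting error only. Filled points use the authors' totals and open points sums of reads, which move CALR, DNAJB11 and HSP90B1 in shUSP16-1 from just above to just below 1, and SDF2L1 likewise in the right panel.

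Across all genes, limma on log2(FPKM + 1) called 0 of 13852 genes higher and 0 lower (0% each) after Benjamini-Hochberg adjustment, with 0.164 as the lowest adjusted p and 2008 genes under an unadjusted p of 0.05. It thus called 0 of the 10 chaperone genes; HYOU1, SDF2L1, CRELD2 and MANF had an unadjusted p under 0.05, where 8.71% of all genes did in the higher direction and 5.78% in the lower. limma voom on the recovered reads, with the authors' totals, called 3 of the 10 higher (HYOU1, SDF2L1 and CRELD2), against 1.47% of all genes called higher and 1.04% called lower. With sums of reads it called HYOU1 and CRELD2, against 1.00% of all genes called higher and 3.02% called lower. Since the genes were chosen on this contrast, these calls are no evidence about them. The control is a single library, so the spread comes from the 2 shUSP16 libraries alone and the control is assumed to vary like them.

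The sensors and transcription factors upstream of the 10 genes showed no call by limma, of 13 tested genes of 14 listed. On the log2(FPKM + 1) scale the list median was 0.25 in shUSP16-1 and 0.22 in shUSP16-2. Of the 13 genes 8 were higher in both and 1 lower in both, and 3 were higher at an unadjusted p under 0.05. Scaled to sums of reads, the list median became 0.16 for shUSP16-1 and 0.12 for shUSP16-2, with 7 genes higher in both and 4 lower in both. Over all 13852 tested genes 44.9% were higher in both and 32.4% lower in both, and 8.71% were higher and 5.78% lower at that p. With sums of reads 4339 of the 13852 were higher in both and 6282 lower in both. XBP1, the factor whose mRNA ERN1 splices, had 47.2 FPKM in shUSP16-1 and 51.1 FPKM in shUSP16-2, against 36.2 FPKM in shControl (limma adjusted p = 0.292). Gene totals do not show how much of it was spliced. RTCB, the ligase that joins the cut XBP1 mRNA, had 26.8 and 28.4 FPKM, against 17.1 FPKM in shControl (limma adjusted p = 0.272). Of this list voom called only RTCB higher (voom adjusted p = 0.016 with the authors' totals and 0.020 with sums of reads). Over all tested genes voom called 1.47% higher with the authors' totals and 1.00% with sums of reads.

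None of the 3 sensors was called by limma or voom. ATF6 had 7.74 and 7.81 FPKM in the shUSP16 libraries, against 6.33 FPKM in shControl. ERN1 had 2.03 and 1.99 FPKM, against 1.84 FPKM, and EIF2AK3 had 4.45 and 5.73 FPKM, against 4.77 FPKM, with the control between the 2 shUSP16 values. ATF6B, CREB3, CREB3L2 and the protease gene MBTPS1 had mean log2 differences between -0.11 and -0.004 (limma adjusted p from 0.763 to 0.991), and the other protease gene MBTPS2 had 0.36. The NF-Y subunit genes had mean log2 differences of 0.41 for NFYA, 0.34 for NFYB and 0.19 for NFYC. CREB3L1 was below 1 FPKM and was not tested.

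In the PERK and ATF4 branch, which slows translation and adapts amino acid supply, most genes were below shControl. Of its 10 genes 2 were higher in both libraries and 6 lower in both, with a median of -0.10 in shUSP16-1 and -0.09 in shUSP16-2; with sums of reads 1 was higher and 7 lower in both. limma called 0 of them, with 1 higher and 4 lower at an unadjusted p under 0.05. Over all 13852 tested genes 8.71% were higher and 5.78% lower at that level, and 44.9% were higher and 32.4% lower in both libraries. With sums of reads 4339 of the 13852 were higher in both and 6282 lower in both. DDIT3, encoding CHOP, the factor tied to death under lasting ER stress, had 15.8 FPKM in shUSP16-1 and 15.5 FPKM in shUSP16-2, against 29.8 FPKM in shControl (limma adjusted p = 0.212). PPP1R15A, whose protein reverses the phosphorylation of eIF2α, had 9.58 and 9.94 FPKM, against 14.2 FPKM in shControl. ATF3, a stress-induced repressor, had 11.3 and 12.9 FPKM, against 25.8 FPKM. ATF4 itself was at 346 and 351 FPKM, against 270 FPKM. Mean log2 differences of the rest were nearer to 0, except for ASNS at -0.38. They were -0.05 for TRIB3, -0.09 for CHAC1, -0.07 for CEBPB, 0.12 for DDIT4 and 0.17 for SESN2. Restricted to protein-coding genes, limma called DDIT3 and ATF3 lower (adjusted p = 0.017 and 0.014), where 0.154% of genes were called higher and 0.280% lower. Voom called both lower with either kind of total, and with sums of reads also PPP1R15A and ASNS. Over all tested genes voom called 1.04% lower with the authors' totals and 3.02% with sums of reads.

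Other folding factors of the ER had a list median near that of the 10 genes in shUSP16-1 (0.17) and below it in shUSP16-2 (0.55). The 10 were chosen on this contrast, so nothing is read from that order. Some of the other factors lay close to the 10. Of 25 tested genes 18 were higher in both libraries and 4 lower in both, and the medians were 0.16 for shUSP16-1 and 0.26 for shUSP16-2. With sums of reads 13 were higher and 5 lower in both, and the medians were 0.07 and 0.16. Over all 13852 tested genes 44.9% were higher and 32.4% lower in both, and with sums of reads 4339 were higher and 6282 lower in both. CANX, the membrane-bound relative of calreticulin, had 141 FPKM in shUSP16-1 and 166 FPKM in shUSP16-2, against 98.6 FPKM in shControl. PDIA6, a disulfide isomerase, had 46.6 and 56.6 FPKM, against 34.5 FPKM, and the thioredoxin-related TMX1 had 20.8 and 23.7 FPKM, against 14.6 FPKM. limma called 0 of the 25, with 5 higher and 1 lower at an unadjusted p under 0.05, where 8.71% and 5.78% of all tested genes were. The limma adjusted p was 0.280 for CANX, 0.291 for PDIA6 and 0.280 for TMX1. Voom called these 3 higher with either kind of total. Over all tested genes voom called 1.47% higher with the authors' totals and 1.00% with sums of reads. HSPA13 had a log2 difference of 0.42, and the oxidase gene ERO1B and the MANF relative CDNF had fewer FPKM in both shUSP16 libraries than in shControl, CDNF being too low to test.

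Genes of ER-associated degradation and of protein entry into the ER were called by neither tool. Among the 7639 genes that averaged 5 FPKM or more, 4449 were higher in both libraries and 1665 lower in both. For degradation, 12 of 20 tested genes were higher in both and 3 lower in both, with medians of 0.08 and 0.13 in shUSP16-1 and shUSP16-2. With sums of reads the degradation medians were -0.01 and 0.01, with 8 genes higher and 8 lower in both. At an unadjusted p under 0.05 there were 2, each of them higher. Over all 13852 tested genes 8.71% were higher and 5.78% lower at that level, and 44.9% were higher and 32.4% lower in both libraries. With sums of reads 4339 of the 13852 were higher in both and 6282 lower in both. SEL1L, the adaptor of the ubiquitin ligase SYVN1, had 13.5 and 15.5 FPKM, against 10.4 FPKM in shControl, but HERPUD1, a strongly stress-induced gene of this list, had 32.6 and 33.7 FPKM, against 34.5 FPKM. UFD1, VCP and NPLOC4, which together extract proteins from the membrane, had mean log2 differences of 0.38, 0.28 and 0.16. For translocation and glycosylation, 18 of 22 genes were higher in both and 2 lower in both, with medians of 0.13 and 0.31 and 7 genes at an unadjusted p under 0.05; with sums of reads 13 were higher and 2 lower in both, with medians of 0.04 and 0.19. SEC11C, a signal peptidase subunit, STT3B and RPN2, of the oligosaccharyltransferase, and SSR3, of the translocon-associated complex, had 0.47, 0.45, 0.38 and 0.37. Of the KDEL receptors, which return escaped chaperones to the ER, KDELR3 had 4.55 and 4.72 FPKM, against 2.85 FPKM in shControl, and KDELR2 had 57.3 and 59.5 FPKM, against 52.3 FPKM; 1 of the 3 receptors had an unadjusted p under 0.05, and neither tool called any.

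**Figure D4:**
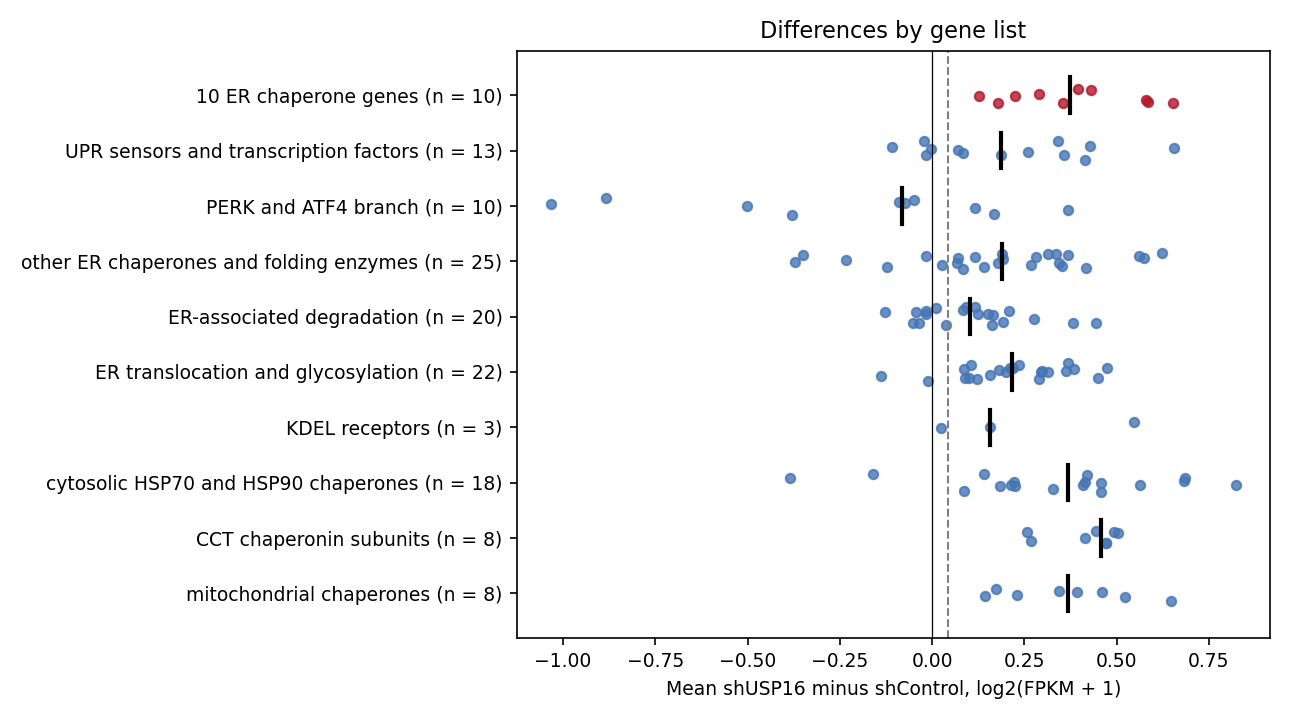
Mean of the 2 shUSP16 libraries minus shControl in log2(FPKM + 1) for the tested genes of each list (points, spread vertically at random), with the median as a black bar and the median of all 13852 genes as a dashed line. The ER chaperone genes, chosen on this contrast, have a median of 0.37, as do the cytosolic and mitochondrial chaperones, whereas the PERK and ATF4 branch lies at -0.08; limma called no gene of these lists over all genes.

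Chaperones of other compartments were about as far from shControl, by their medians, as those of the ER. The medians in shUSP16-1 and shUSP16-2 were 0.28 and 0.43 for 18 cytosolic HSP70 and HSP90 chaperones, 0.35 and 0.56 for the 8 subunits of the CCT chaperonin and 0.32 and 0.41 for 8 mitochondrial chaperones, next to 0.17 and 0.55 for the 10 ER genes. With sums of reads these medians were 0.19 and 0.31, 0.25 and 0.44, and 0.23 and 0.29, next to 0.08 and 0.43 for the ER genes. HSPA8, the constitutive cytosolic HSP70, had 264 and 303 FPKM, against 159 FPKM in shControl, and HSPD1, the mitochondrial chaperonin, had 307 and 325 FPKM, against 219 FPKM. Of the cytosolic list, HSPH1, HSP90AA1 and ST13 had mean log2 differences of 0.69, 0.56 and 0.68. Of its 18 genes 16 were higher in both libraries and 2 lower in both, HSPA1A at -0.39 and BAG3 at -0.16. All 8 CCT and all 8 mitochondrial genes were higher in both, where 44.9% of all tested genes were and 32.4% were lower. With sums of reads 14 cytosolic, 8 CCT and 7 mitochondrial genes were higher in both, where 4339 of all 13852 were. Then 2 cytosolic genes and 6282 of all 13852 were lower in both. CCT2, CCT3, CCT5 and CCT8 lay between 0.47 and 0.50, and HSPA9, TRAP1 and GRPEL1 had 0.46, 0.39 and 0.65. Over all genes limma called 0 of these lists, with 9, 6 and 4 higher at an unadjusted p under 0.05, where 8.71% of all tested genes were. Among protein-coding genes limma called HSPA8 higher (adjusted p = 0.021), where 0.154% of genes were called higher and 0.280% lower. Voom with the authors' totals called 4, 2 and 2 higher and with sums of reads 4, 0 and 2. Over all tested genes voom called 1.47% higher with the authors' totals and 1.00% with sums of reads. No difference between these lists and the ER genes was tested, and nothing in these medians is particular to the ER.

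Sequence can pick genes without their values, but here the elements were chosen after the values were known. The 6 chaperone genes with a match, all higher in both libraries (medians 0.34 and 0.58), were chosen on this contrast. Setting them apart takes high genes out of the set, so the other genes with a match are no test. Besides 6 of the 10, 23 tested genes had an exact ERSE or ERSE-II match in a RefSeq promoter window, 12 of them ERSE and 11 ERSE-II. The matches need not be separate elements, since ALG12 overlaps the start of CRELD2 on the other strand and may hold the same match. Of these 23, 10 were higher in both shUSP16 libraries and 10 lower in both, with -0.01 (shUSP16-1) and 0.02 (shUSP16-2) as their medians, next to 0.04 in either library over all genes; with sums of reads 9 were higher and 13 lower in both. limma called 0 of the 23, with 3 higher and 1 lower at an unadjusted p under 0.05. Over all 13852 tested genes, 8.71% were higher and 5.78% lower at that level, and 44.9% were higher and 32.4% lower in both libraries. With sums of reads 4339 of the 13852 were higher in both and 6282 lower in both. CANX, PDIA6 and XBP1 were the highest of them. As for other genes of the ER among them, FICD, encoding an enzyme that modifies HSPA5, had differences of 0.13 in shUSP16-1 and 0.28 in shUSP16-2, and ALG12, a mannosyltransferase gene that shares its promoter region with CRELD2, had 0.11 and 0.24. HERPUD1 had -0.08 and -0.03, ERO1B -0.57 and -0.13, and SERP1, an ER membrane stress protein gene, 0.05 and -0.04. The match in CANX lies in overlapping windows of several annotated starts. Those of CANX and XBP1 are shown to compare with the 6 above, with capitals for ERSE.
CANX (chr5:179698758-179698816, plus strand): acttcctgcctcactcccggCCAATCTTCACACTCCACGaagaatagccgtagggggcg
XBP1 (chr22:28800583-28800641, minus strand): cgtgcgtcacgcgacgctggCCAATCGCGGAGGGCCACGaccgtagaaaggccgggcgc
Within the 10, HYOU1 and SDF2L1, with ERSE-II, were alike in both shUSP16 libraries, and HSPA5, HSP90B1 and CALR, with ERSE, were higher in shUSP16-2, but CRELD2, with ERSE, was high in both. With 6 genes this is a description only, and PDIA4, with neither match, had the pattern of HSPA5.

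**Figure D5:**
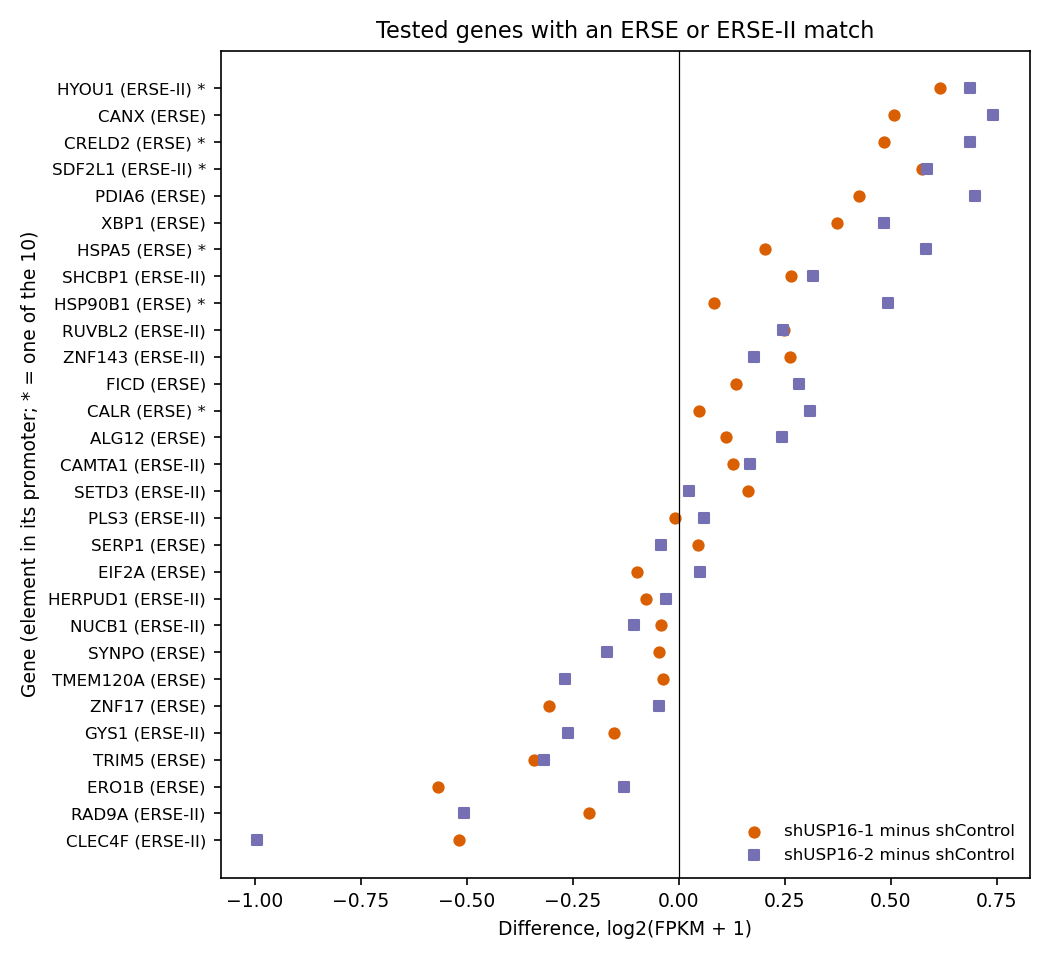
Difference from shControl in log2(FPKM + 1) in shUSP16-1 (circles) and shUSP16-2 (squares) for the 29 tested genes whose promoter window holds an ERSE or ERSE-II match, with asterisks on the 6 that belong to the 10 ER chaperone genes. The 23 others spread to both sides of 0, from -0.76 for CLEC4F to 0.62 for CANX in the mean of both libraries.

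Other genes were ranked by distance from the median pair of the 10, 0.17 in shUSP16-1 and 0.55 in shUSP16-2, among 2011 averaging 20 FPKM or more. HSPA5, at 0.20 and 0.58, lay near that pair, but HYOU1, at 0.62 and 0.69, and DNAJB11, at 0.01 and 0.24, did not. Nearness to the pair is thus not likeness to each of the 10. The nearest 5 were AC026403.1, CDCA7, RPS27AP16, AC016739.1 and CDCA5, at distances of 0.010 to 0.037 log2 units. CDCA7, a chromatin protein gene linked to the cell cycle, had 35.0 FPKM in shUSP16-1 and 46.6 FPKM in shUSP16-2, against 31.4 FPKM in shControl. CDCA5, encoding the cohesin regulator sororin, had 19.8 and 25.3 FPKM, against 17.4 FPKM. There were 30 genes within 0.1 of that pair, and the measure rests on the 3 libraries alone. The other 3 of the 5 are pseudogenes, whose reads may be shared with near-identical copies.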

How the data were processed

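RNA was sequenced from 2 shUSP16 libraries and 1 shControl library, grouped by their titles. The authors deposited FPKM values with gene lengths for 58735 genes; for the aligner, counter, strand setting and annotation the sources used here give nothing. Mouse builds (GRCm38, mm10) stand in the submitters' processing notes, yet each of the 58735 gene IDs, with its coordinates, is that of human GENCODE release 29 on GRCh38. FPKM times gene length was a whole multiple of 1 step per library for 100% of values above 0 (tolerance 0.01 reads), which gave whole reads. Library totals back-calculated from those values were, as multiples of the sums of reads, 1.01 in shUSP16-1, 0.994 in shUSP16-2 and 1.08 in shControl.

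limma 3.58.1 (R 4.3.3) with a mean trend was fitted to log2(FPKM + 1) over 13852 genes averaging 1 FPKM or more, with Benjamini-Hochberg adjustment over all of them and a threshold of 0.05. Each gene had 1 residual degree of freedom, with 4.05 prior ones. limma and voom were tested on simulated data, where both also called genes that had not been changed. The members, gene lists and tests were chosen with earlier results of these data known. Named genes were the 10, USP16, all sensors, up to 4 per list and the 5 nearest to the median pair of the 10. Those taken per list moved alike in both libraries and were ranked by the smaller of their 2 changes. HERPUD1, ERO1B, CDNF, ASNS, SERP1, FICD, ALG12, CLEC4F, COL3A1, LUM, FN1, PDGFRB and CDH2 were named after their values were seen. So were TRIB3, CHAC1, CEBPB, DDIT4, SESN2, HSPA1A and BAG3. Of symbols listed more than once, the row with the highest mean was used. Ratio intervals are exact binomial (95%). Alternatives were another pseudocount, filters, scalings, protein-coding genes only, no trend, voom and leaving out each shUSP16 library. Intervals came from scipy 1.17.1, tables from pandas 2.3.3 and figures from matplotlib 3.10.9 (Python 3.11.15).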

Additional observations from a re-analysis of the deposited data

How the results depend on the processing

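The count of genes called by limma over all genes was 0 with a pseudocount of 0.1, without a filter, with either other scaling and with no trend. It was 13 (3 higher and 10 lower) with a mean of at least 5 FPKM, 48 (17 and 31) among protein-coding genes, 348 (204 and 144) with voom and the authors' totals, and 557 (139 and 418) with voom and sums of reads. For the 93 tested genes of the other ER and stress response lists the calls were 2 among protein-coding genes, 6 with voom and the authors' totals and 8 with voom and sums of reads, and 0 otherwise; the cause was not tested. The median difference of the 10 genes, 0.37, ran from 0.27 with sums of reads to 0.38 with voom and the authors' totals, and from 0.17 to 0.55 when either shUSP16 library was left out. The count at least 25% higher in both was 3 with either other scaling, and from 4 to 8 when 1 shUSP16 library was left out, 8 without shUSP16-1. The count higher in both was 7 with sums of reads and 8 with median ratios. Of 110 values of single genes under these alternatives, 110 were above 0, and 8, all of HYOU1 or SDF2L1, moved by more than the SD of the shUSP16 libraries. The other filters, protein-coding genes only and no trend cannot change the difference of a gene, so their values repeat the main ones. Because the genes were chosen with these differences known, nothing is read from the count above 0. HYOU1 and SDF2L1 had the smallest spread between the shUSP16 libraries, so small shifts exceeded it. Leaving out a shUSP16 library left no residual degrees of freedom, so limma was not run there. No paired analysis was possible because shControl is 1 library. The lone control limits every difference from it.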
